A study of Mus musculus with 6 samples.

Results

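Genes of the contractile machinery of vascular smooth muscle and of the mural cells that wrap small vessels were examined in bulk RNAseq of infarcted mouse left ventricles. The set was given as 10 symbols, and a gene was taken when its symbol in the deposited table was one of them. Of the 10 symbols, 9 were found among the 17556 genes of the table (Acta2, Tagln, Myh11, Cnn1, Smtn, Lmod1, Mylk, Rgs5 and Cspg4), and all 9 passed the filter on low counts that left 13817 genes to test. The symbol Notch3l was not found, and Notch3 is described beside the 9 genes and not counted with them. In short, 7 of the 9 genes had a higher mean in Cre-positive than in Cre-negative ventricles, as had 51.2% of all genes tested. The median log2 fold change of the 9 was 0.33, against 0.01 over all genes tested. It was 0.10 without 1 Cre-negative ventricle that stood apart. None of the 9 passed the test across all genes, where 1 of all 13817 did.

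The ventricles came from sibling mice of 6 to 10 weeks that all carried floxed Yap (both alleles) and floxed Wwtr1 (1 allele). In 3 mice a copy of MerCreMer, a Cre recombinase that needs tamoxifen, stood under the endogenous Postn promoter (Cre-positive), and 3 mice had wildtype Postn (Cre-negative). All 6 mice had permanent ligation of the left anterior descending coronary artery, received a diet with tamoxifen citrate from the end of surgery, and were sampled 4 days post injury. No uninjured ventricle and no Cre-positive ventricle without floxed alleles is among the 6, and the Cre is active where Postn is active, which is mainly in myofibroblasts.

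Smooth muscle contracts when myosin light chain kinase phosphorylates the regulatory light chain of smooth muscle myosin, which then pulls on actin filaments that carry calponin, transgelin and tropomyosin. Transcription of these genes is driven by serum response factor (SRF) together with myocardin and its relatives, and Yap and Wwtr1 act through TEAD factors, which can also bind promoters of smooth muscle genes. Acta2 and Tagln are also switched on in myofibroblasts of a healing infarct, so their RNA in a whole ventricle has at least 2 cellular sources, whereas Myh11 is largely restricted to smooth muscle and Rgs5 and Cspg4 mark pericytes. In RNA of a whole ventricle, fewer cells of a type and less RNA per cell cannot be told apart.

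Libraries held between 13177888 and 14827579 counts. When a gene of the set or of its lists is compared between ventricles, its level is given as CPM, counts scaled to the library size with the TMM method. When genes are compared with each other, and for markers of other cell types, levels are given as TPM, which also accounts for gene length. On the TPM scale the median log2 difference of all genes, Cre-positive over Cre-negative, was 0.11 (pseudocount 1), against 0.01 with TMM-scaled counts. The targeted genes were checked in every ventricle. Yap1 had 108, 103 and 99.5 CPM in Cre-negative and 113, 101 and 103 in Cre-positive ventricles, and Wwtr1 had 113, 103 and 112 in Cre-negative and 113, 109 and 116 in Cre-positive ventricles. The 2 groups overlapped for both genes in CPM. In TPM they did not overlap, and the Cre-positive values were the higher ones. Yap1 had 48.9 to 50.7 TPM in Cre-positive and 44.2 to 46.3 TPM in Cre-negative ventricles. Wwtr1 had 43.9 to 47.4 TPM and 39.3 to 43.6 TPM. A loss of these transcripts was thus not detectable in the whole ventricle on either scale. Postn, the locus of the Cre, had 852, 1727 and 1883 CPM in Cre-negative and 889, 998 and 945 in Cre-positive ventricles.

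Cre-negative replicate 1 stood apart from the other 5 libraries. Its mean absolute log2 difference from the rest of its group was 0.38 over all genes tested, against 0.19 to 0.27 for the other ventricles. The 8 myofibroblast markers summed to 2119 TPM in it and to between 3997 and 4262 TPM in the others, the 8 cardiomyocyte markers to 63748 TPM against 48239 to 54465 TPM, and the 6 neutrophil markers to 415 TPM against 48.4 to 156 TPM. Of the 9 contractile and mural genes, 7 (77.8%) had their lowest value in this ventricle, compared with 32.1% of all genes tested. Comparisons of genotypes are therefore also given without it, and its part in the results beyond those values was not tested.

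The 9 genes covered a wide range of abundance. Acta2, smooth muscle alpha actin, was the most abundant, with a mean of 497 TPM over the 6 ventricles, and Tagln, the actin-binding protein transgelin, followed with 264 TPM. Rgs5, which shortens G protein signals in pericytes, had a mean of 199.7 TPM, and Smtn, the cytoskeletal protein smoothelin, a mean of 109 TPM. Cnn1, basic calponin, stood at 31.2 TPM. Cspg4 (the proteoglycan NG2), Mylk (myosin light chain kinase) and Myh11 (smooth muscle myosin heavy chain) lay close together at 14.04, 11.0 and 9.93 TPM, and Lmod1, the actin nucleator leiomodin 1, was the lowest at 2.67 TPM.

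Neighbours in this order were often not separable. Ranges over the 6 ventricles did not overlap only between Rgs5 and Smtn, between Smtn and Cnn1 and between Myh11 and Lmod1. Within a ventricle the order was steadier, as Acta2 exceeded Tagln and Cnn1 exceeded Cspg4 in 6 of 6 ventricles, and Tagln exceeded Rgs5, Cspg4 exceeded Mylk and Mylk exceeded Myh11 in 5 of 6.

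**Figure D1:**
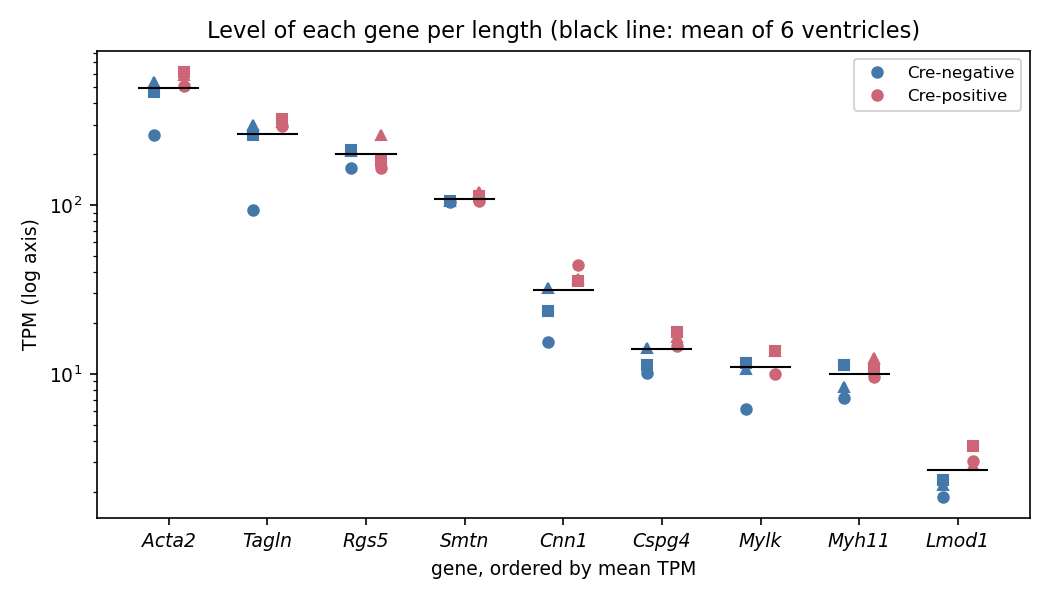
Deposited TPM (log axis) of the 9 genes, ordered by their mean, with a point for each of the 6 ventricles (blue, Cre-negative; red, Cre-positive; circle, square and triangle for replicates 1, 2 and 3) and a black line at the mean. Acta2 (497 TPM) and Lmod1 (2.67 TPM) are the ends of the order, and the low blue circles of Acta2, Tagln, Cnn1 and Mylk are Cre-negative replicate 1.

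Actin itself was described before its partners. Acta2 (gene number 11475), on the minus strand of chromosome 19 at chr19:34240336-34255585 (GRCm38.p6), had 399, 647 and 733 CPM in Cre-negative ventricles and 694, 779 and 766 in Cre-positive ventricles. The lowest value belonged to Cre-negative replicate 1, and the other 5 values lay between 647 and 779 with the genotypes overlapping. The group means were 747 ± 45.5 (SD, n = 3) in Cre-positive and 593 ± 174 (SD, n = 3) in Cre-negative ventricles, a log2 fold change of 0.33 (SE 0.21; adjusted p = 0.714, edgeR quasi-likelihood test with Benjamini-Hochberg adjustment). Without Cre-negative replicate 1 the log2 fold change was 0.11 (95% interval −0.09 to 0.31).

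Tagln (gene number 21345; chr9:45929628-45936058) encodes the protein that stabilises actin bundles in contractile smooth muscle and in myofibroblasts. It had 86.5, 218 and 247 CPM in Cre-negative and 243, 248 and 244 in Cre-positive ventricles. Cre-negative replicate 1 held 0.37 times the mean of the other Cre-negative ventricles, the widest such gap among the 9 genes, while the remaining values differed little. It had a log2 fold change of 0.41 (SE 0.33; adjusted p = 0.732, edgeR with Benjamini-Hochberg adjustment) with all ventricles and 0.07 without Cre-negative replicate 1 (95% interval −0.11 to 0.26). Tagln overlaps the protease gene Pcsk7 over 2480 bases, and its deposited counts were not whole numbers in 6 of 6 ventricles, as estimated counts can be where a read matches more than 1 gene or transcript. Whether reads were shared between Tagln and Pcsk7 was not tested. Pcsk7 held 484 to 684 estimated counts where Tagln held 1050 to 3830, and whether strand was used in counting is not given in the sources used here.

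Cnn1 (gene number 12797; plus strand, chr9:22099221-22109221) encodes calponin 1, which binds actin and holds back the myosin ATPase. Its values were 12.8, 17.2 and 23.7 CPM in Cre-negative and 32.2, 24.3 and 25.5 in Cre-positive ventricles. All 3 Cre-positive values lay above all 3 Cre-negative values, although the gap between 23.7 and 24.3 was narrow. Cnn1 had the largest log2 fold change of the set, 0.61 (SE 0.22, 95% interval 0.09 to 1.12), with an unadjusted p = 0.0277 and an adjusted p = 0.714 (edgeR with Benjamini-Hochberg adjustment). An exact two-sided permutation test over the 6 ventricles gave p = 0.1, the smallest that 3 against 3 allow. Without Cre-negative replicate 1 the log2 fold change was 0.41 (unadjusted p = 0.046 from edgeR).

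Lmod1 (gene number 93689; plus strand, chr1:135324813-135368065), which nucleates actin filaments in smooth muscle, also separated the genotypes. It had 4.45, 5.02 and 4.70 CPM in Cre-negative and 6.49, 7.31 and 5.82 in Cre-positive ventricles, resting on only 54 to 113 counts in a library. Again every Cre-positive value exceeded every Cre-negative one. The log2 fold change was 0.47 (SE 0.17, 95% interval 0.07 to 0.87; unadjusted p = 0.028, adjusted p = 0.714, edgeR with Benjamini-Hochberg adjustment) and the exact permutation p was 0.1. Leaving out Cre-negative replicate 1 moved it little, to 0.42, with an unadjusted p = 0.0569 from edgeR.

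Smtn (gene number 29856; minus strand, chr11:3517522-3539292), which binds actin in contractile smooth muscle, was the steadiest gene of the set. Its values were 211, 193 and 190.4 CPM in Cre-negative and 189.6, 189 and 205 in Cre-positive ventricles. The groups overlapped, with the highest value in Cre-negative replicate 1, the ventricle in which most of the other genes were lowest. Its log2 fold change was −0.03 (95% interval −0.23 to 0.18; adjusted p = 0.939, edgeR with Benjamini-Hochberg adjustment), and its sign turned without Cre-negative replicate 1 (0.02).

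Of the motor genes, Myh11 (gene number 17880; chr16:14194527-14292188) had 22.3, 30.6 and 22.5 CPM in Cre-negative and 26.3, 27.0 and 32.0 in Cre-positive ventricles. The Cre-negative values lay on both sides of the lower Cre-positive values. Its log2 fold change was 0.18 (SE 0.15, 95% interval −0.18 to 0.53; adjusted p = 0.749, edgeR with Benjamini-Hochberg adjustment), and 0.09 without Cre-negative replicate 1. Leaving out each ventricle in turn gave a range of 0.08 to 0.34.

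Mylk (gene number 107589; plus strand, chr16:34745199-35002436), the kinase that switches this myosin on, had 27.9, 47.1 and 43.4 CPM in Cre-negative and 40.3, 52.3 and 53.7 in Cre-positive ventricles. The genotypes overlapped, and Cre-negative replicate 1 was the lowest ventricle by a wide margin. Its log2 fold change was 0.30 (SE 0.20; adjusted p = 0.716, edgeR with Benjamini-Hochberg adjustment) with all ventricles and 0.10 without that replicate.

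The pericyte genes Rgs5 and Cspg4 had unlike patterns. Rgs5 (gene number 19737; plus strand, chr1:169655501-169695813) had 413, 474 and 455 CPM in Cre-negative and 368, 367 and 549.7 in Cre-positive ventricles. Cre-positive ventricles held both the lowest values and the highest one, with a mean of 428 ± 105 (SD, n = 3) against 448 ± 31.4 (SD, n = 3). The log2 fold change was −0.06 (95% interval −0.46 to 0.34; adjusted p = 0.920, edgeR with Benjamini-Hochberg adjustment), and −0.12 without Cre-negative replicate 1.

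Cspg4 (gene number 121021; plus strand, chr9:56865104-56899870) encodes the proteoglycan NG2 on the surface of pericytes and immature smooth muscle. It had 49.5, 50.1 and 62.6 CPM in Cre-negative and 64.3, 72.0 and 68.9 in Cre-positive ventricles, with no overlap between the genotypes. The log2 fold change was 0.34 (SE 0.11, 95% interval 0.07 to 0.60), with an unadjusted p = 0.0184, an adjusted p = 0.714 (edgeR with Benjamini-Hochberg adjustment) and an exact permutation p = 0.1. It was 0.28 without Cre-negative replicate 1 (unadjusted p = 0.0352 from edgeR). Notch3, the Notch receptor of mural cells, had 62.5, 108 and 109.7 CPM in Cre-negative and 88.8, 104 and 111 in Cre-positive ventricles, and its log2 fold change of 0.12 turned to −0.11 without Cre-negative replicate 1.

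**Figure D2:**
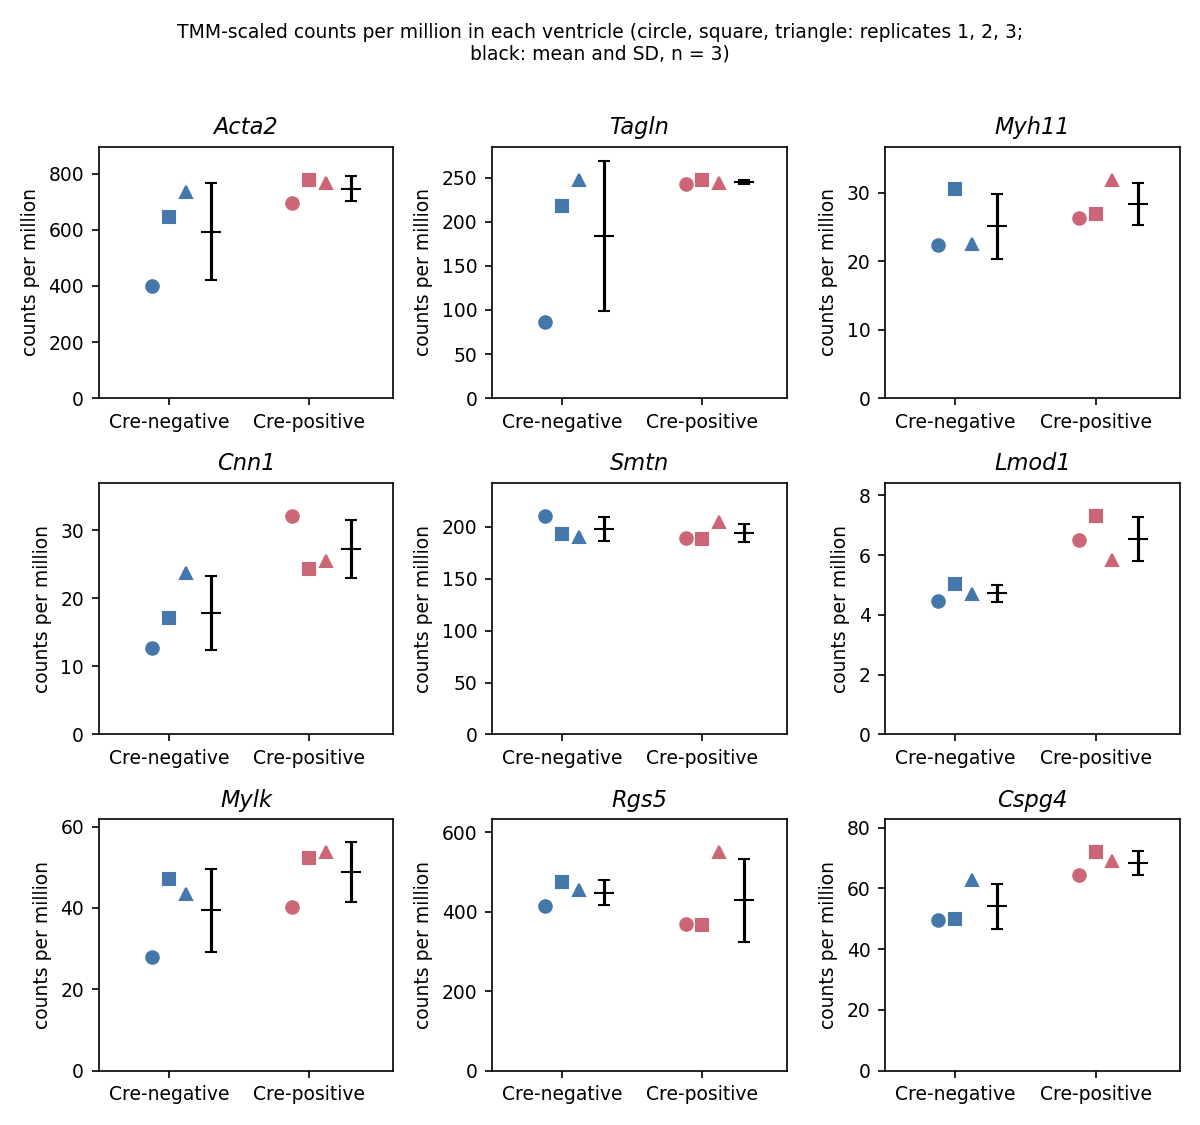
TMM-scaled CPM (each axis starts at 0) of the 9 genes in each ventricle, with circle, square and triangle for replicates 1, 2 and 3 (blue, Cre-negative; red, Cre-positive) and the mean and SD of each genotype in black (n = 3). Cre-positive points lie above all Cre-negative points in Cnn1, Lmod1 and Cspg4, while in Acta2, Tagln and Mylk the Cre-negative circle is far below the other points.

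Across the set, 0 of 9 genes had an adjusted p under 0.05 by edgeR's quasi-likelihood test, as against 1 of all 13817 genes tested (0.00724%), and DESeq2 also called 0 of the 9. With an unadjusted p under 0.05 there were 3 of 9, Cnn1, Lmod1 and Cspg4, all higher in Cre-positive ventricles, where 394 of all genes tested (2.85%) were higher at that level. In the same 3 genes all Cre-positive ventricles lay above all Cre-negative ones, a pattern seen in 1043 of all genes tested (7.55%). The 9 genes had a median log2 fold change of 0.33 against 0.01 over all genes tested, of which 51.2% were higher. As the genes were proposed with results of these ventricles known and were measured in the same ventricles, these counts are a description of the set and not a test of it.

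Leaving out single ventricles changed which genes stood at an unadjusted p under 0.05 in edgeR. These were Cnn1 and Cspg4 without Cre-negative replicate 1, Myh11 and Lmod1 without Cre-negative replicate 2, and Acta2, Cnn1 and Cspg4 without Cre-negative replicate 3. They were Cspg4 alone without Cre-positive replicate 1, Cnn1 alone without Cre-positive replicate 2, and Cnn1 and Lmod1 without Cre-positive replicate 3. All were higher in Cre-positive ventricles, as were 3.58%, 2.79% and 4.07% of all genes tested at that level without Cre-negative replicates 1, 2 and 3, and 2.13%, 1.76% and 2.01% without Cre-positive replicates 1, 2 and 3. No gene of the set reached an adjusted p under 0.05 in any of these fits, the lowest being 0.509. The median log2 fold change of the set ranged from 0.10 without Cre-negative replicate 1 to 0.46 without Cre-negative replicate 3. Cnn1, Lmod1 and Cspg4 kept log2 fold changes of at least 0.41, 0.38 and 0.28 throughout, whereas those of Acta2, Tagln and Mylk went down to 0.11, 0.07 and 0.10 without Cre-negative replicate 1. The highest values of Acta2, Tagln and Mylk in these fits were 0.51, 0.69 and 0.45.

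**Figure D3:**
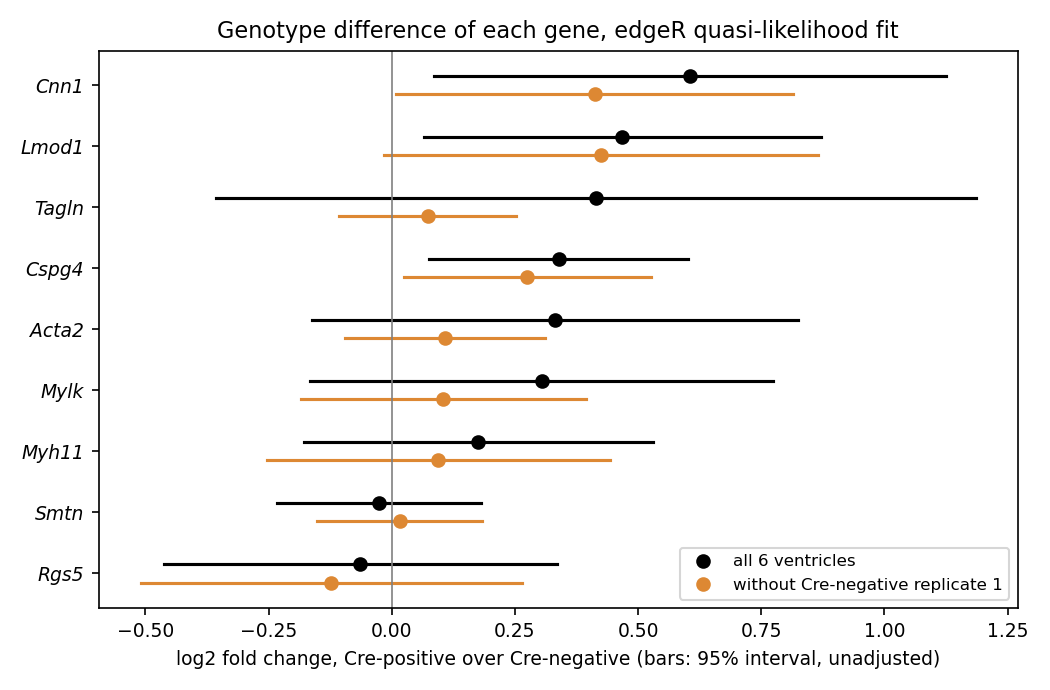
Log2 fold change, Cre-positive over Cre-negative, of each gene from edgeR (points) with its unadjusted 95% interval (bars), with all 6 ventricles in black and without Cre-negative replicate 1 in orange. Tagln moves from 0.41 to 0.07 and Acta2 from 0.33 to 0.11, while Lmod1 (0.47 and 0.42) and Cspg4 (0.34 and 0.28) move little.

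Variation among the genes was compared on log2 CPM centred on each gene's own mean. Tagln was at −1.22 in Cre-negative replicate 1, Cnn1 at −0.76, Acta2 at −0.71 and Mylk at −0.63, whereas Rgs5 was at −0.07 and Smtn at 0.10. Acta2 and Mylk followed each other most closely, with a root mean square difference of 0.13 over the 6 ventricles, then Lmod1 and Cspg4 with 0.16. Tagln and Smtn were the farthest apart, at 0.60. Within the Cre-positive group Rgs5 was at −0.24 in replicates 1 and 2 and at 0.34 in replicate 3, and Mylk, Myh11 and Smtn also had their highest value there in replicate 3 (0.32, 0.27 and 0.06).

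**Figure D4:**
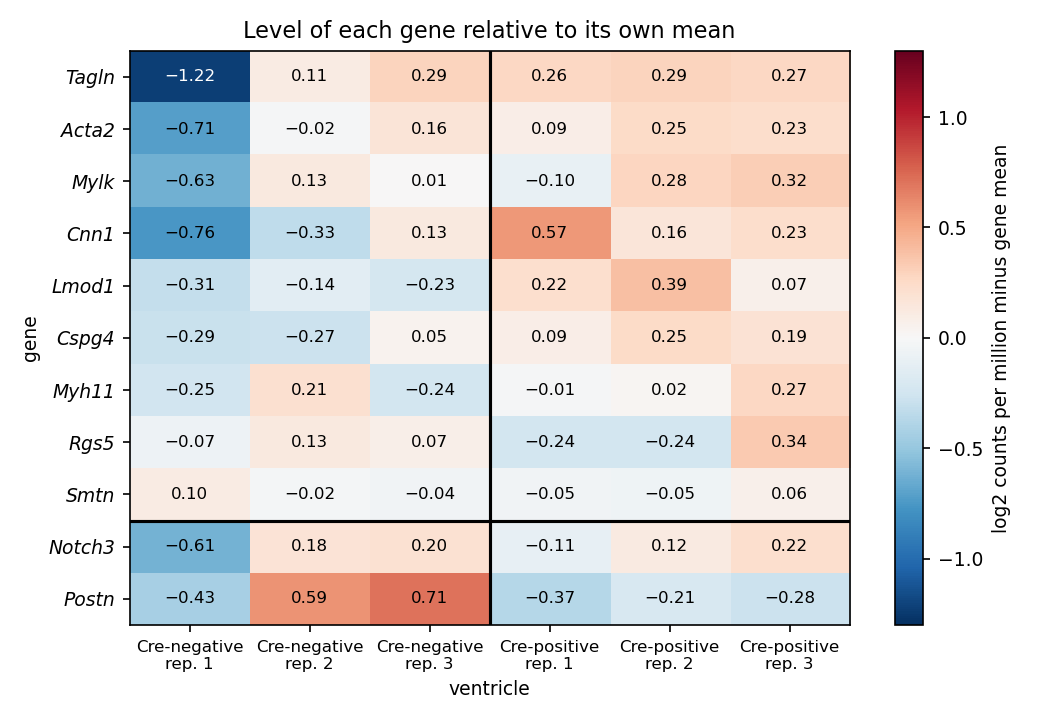
Log2 CPM of each gene minus its mean over the 6 ventricles (blue, below; red, above), with the 9 genes over the horizontal line and Notch3 and Postn beneath it for comparison. The first column, Cre-negative replicate 1, runs from −1.22 in Tagln to 0.10 in Smtn.

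Ratios of TPM within a ventricle set the genes that myofibroblasts share against Myh11. Acta2 exceeded Myh11 by 36.5, 41.6 and 63.9 times in Cre-negative and by 52.9, 57.3 and 47.6 times in Cre-positive ventricles, and the ranges overlapped. Tagln exceeded Myh11 by 13.03, 23.1 and 35.6 times in Cre-negative and by 30.7, 30.2 and 25.0 times in Cre-positive ventricles. The Cre-negative ventricles alone thus spanned the Cre-positive range for both ratios. On the log2 scale the genotypes differed by 0.19 for Acta2 over Myh11, 0.37 for Tagln over Myh11, 0.46 for Cnn1 over Myh11 and −0.27 for Rgs5 over Myh11, and without Cre-negative replicate 1 these differences were 0.02, −0.01, 0.33 and −0.24.

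Genes whose centred levels ran closest to those of Acta2, Myh11 and Rgs5 over the 6 ventricles were sought among all genes with a mean of at least 10 CPM. For Acta2 they were Tgfb3, Tgif1, Sh3pxd2b, Igsf10 and Snai1, with root mean square differences of 0.02 to 0.05 (log2). For Myh11 they included Shisa5, Cyb561a3, Plekha4 and Tle4 (0.06 to 0.07), and for Rgs5 they were Ripor2, Kat8, Slc9a9, Arid4a and Hlx (0.05 to 0.08). None of the 9 genes was among these genes. With 6 values a gene, such closeness is a description of these ventricles.

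Promoters were read from RefSeq on GRCm38.p6, from 250 bases before to 50 bases after the start of a gene, and 7 of the 9 genes matched an entry (all but Tagln and Myh11). Both strands were searched for the CArG box bound by SRF and for GGAATG, letters bound by TEAD factors, the latter added after the counts were seen. The promoters of 4 genes are shown because they hold the GGAATG letters, and Acta2 also because it alone of the 7 holds a CArG box with 1 core position C or G. Capitals mark the GGAATG letters, on either strand, and these CArG-like boxes. The sequences cover chr19:34255324-34255623 (minus strand) for Acta2, chr1:135324563-135324862 (plus strand) for Lmod1, chr16:34784700-34784999 (plus strand) for Mylk and chr11:3539243-3539542 (minus strand) for Smtn.
Acta2: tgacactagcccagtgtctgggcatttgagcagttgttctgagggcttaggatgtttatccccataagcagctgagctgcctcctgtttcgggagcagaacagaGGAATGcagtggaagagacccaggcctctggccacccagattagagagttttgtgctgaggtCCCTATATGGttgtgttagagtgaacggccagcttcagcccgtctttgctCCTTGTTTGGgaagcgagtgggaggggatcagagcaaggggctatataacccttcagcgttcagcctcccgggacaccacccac
Lmod1: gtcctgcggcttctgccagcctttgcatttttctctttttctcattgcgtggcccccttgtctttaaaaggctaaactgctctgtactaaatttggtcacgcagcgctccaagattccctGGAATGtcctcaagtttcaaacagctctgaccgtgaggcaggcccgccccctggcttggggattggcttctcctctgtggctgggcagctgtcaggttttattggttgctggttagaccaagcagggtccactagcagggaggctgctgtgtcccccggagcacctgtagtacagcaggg
Mylk: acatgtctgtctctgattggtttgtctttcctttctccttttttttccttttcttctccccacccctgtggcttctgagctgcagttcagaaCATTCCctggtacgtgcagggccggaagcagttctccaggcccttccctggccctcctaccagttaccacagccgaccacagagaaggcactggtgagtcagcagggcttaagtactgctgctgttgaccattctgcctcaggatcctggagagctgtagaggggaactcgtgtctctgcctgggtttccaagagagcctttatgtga
Smtn: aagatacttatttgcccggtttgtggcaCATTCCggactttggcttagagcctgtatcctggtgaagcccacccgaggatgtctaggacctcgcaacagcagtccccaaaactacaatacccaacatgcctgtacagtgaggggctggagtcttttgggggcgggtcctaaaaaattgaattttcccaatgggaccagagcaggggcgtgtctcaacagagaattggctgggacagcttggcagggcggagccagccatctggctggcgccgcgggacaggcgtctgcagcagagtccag

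A full CArG box was found in 0 of the 7 promoters and in 1.41% of the 13729 promoters of genes in the table. With 1 core position allowed to be C or G, Acta2 held matches at −84 to −75 and at −34 to −25 from its start, and 8.25% of all promoters held at least 1. GGAATG was present in 4 of 7 (Acta2 at −146, Lmod1 at −130, Mylk at −158 and Smtn at −222) and in 12.6% of all promoters, and these matches overlapped no CArG match. Of the 4 genes, Lmod1 had a log2 fold change of 0.47 and Smtn one of −0.03, so genes with the letters spanned most of the range of the set. The window of Mylk lies at a start inside the span of the gene, and a match says only that the letters are there. CANNTG was found in 5 of 7 (65.9% of all promoters) and GGGCGG in 3 of 7 (56.6%).

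Other genes of the same machinery were taken from 5 lists with 79 genes in all, the 9 genes included, and all 79 were tested. Which cells of the ventricle made the RNA of these list genes was not tested. None of the 79 had an adjusted p under 0.05 by edgeR (lowest adjusted p 0.714), as against 1 of all 13817 genes tested. At an unadjusted p under 0.05, 7 of the 79 were higher and 3 lower. Over all genes tested 2.85% were higher and 2.98% lower at that level. Among the 70 genes that were not of the set, 39 were higher in Cre-positive ventricles, where 51.2% of all genes tested were higher. The median log2 fold change of the 70 was 0.02. Of the 70, 9 had all Cre-positive ventricles above all Cre-negative ones and 4 had them all below. Over all genes tested 7.55% were above and 6.85% below.

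The thin filament list had the highest median log2 fold change, 0.32, with 12 of 16 genes higher in Cre-positive ventricles. Over all genes tested 51.2% were higher. The list includes Acta2, Tagln, Cnn1, Smtn and Lmod1 of the set. At its upper end were Actg2, the enteric smooth muscle actin, with 14.8 ± 2.22 against 8.49 ± 4.86 CPM (SD, n = 3 each; log2 fold change 0.79), and Cnn1. At its lower end were Tpm1, the tropomyosin that cardiomyocytes also make in bulk (−0.25), and Smtnl2 (−0.22). Without Cre-negative replicate 1 the median was 0.13 with 15 of 16 higher, Actg2 stood at 0.38, Tpm1 at −0.16 and Smtnl2 at 0.04. In the myosin list the median was 0.04, with 11 of 17 higher, from the non-muscle myosins Myh9 (0.40) and Myh10 (0.33) to the phosphatase subunit Ppp1r12b (−0.19) and the kinase Dapk3 (−0.17). Without that replicate the median was 0.01, Myh9 stood at 0.22, Myh10 at 0.19, Ppp1r12b at 0.01 and Dapk3 at −0.16.

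The mural and pericyte list had a median of 0.00, with 10 of 19 genes higher. Its ends were Rgs4, a relative of Rgs5 (0.48), and Cspg4 against Higd1b (−0.46) and P2ry14 (−0.42), so pericyte genes lay on both sides of 0. Without Cre-negative replicate 1 the median was −0.04, Rgs4 stood at 0.38, Higd1b at −0.42 and P2ry14 at −0.68. Regulators of SRF had a median of 0.04 with 6 of 12 higher, from Csrp1 (0.26) and Lpp (0.24) to Fhl2 (−0.48) and Myocd, which encodes myocardin (−0.17). Leaving out Cre-negative replicate 1, Csrp1 stood at 0.06, Lpp at 0.15, Fhl2 at −0.10 and Myocd at 0.04, with a median of 0.05 and 10 of 12 higher.

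Receptors and channels of vascular tone had a median of −0.003 with 7 of 15 higher. The IP3 receptor Itpr1 had 47.1 ± 0.963 against 38.7 ± 2.95 CPM (SD, n = 3 each; log2 fold change 0.28) and the phosphodiesterase Pde5a a log2 fold change of 0.26. The alpha-1 adrenergic receptors Adra1b and Adra1a stood at −0.61 and −0.49, with an unadjusted p = 0.0155 and an adjusted p = 0.714 for Adra1b (edgeR with Benjamini-Hochberg adjustment). Kcnma1, singled out after its value was seen, had the largest log2 fold change of any list (1.47) at only 4 to 20 counts in a library. Without Cre-negative replicate 1 the median was −0.06, Itpr1 stood at 0.22, Pde5a at 0.19, Adra1b at −0.36, Adra1a at −0.47 and Kcnma1 at 1.41.

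**Figure D5:**
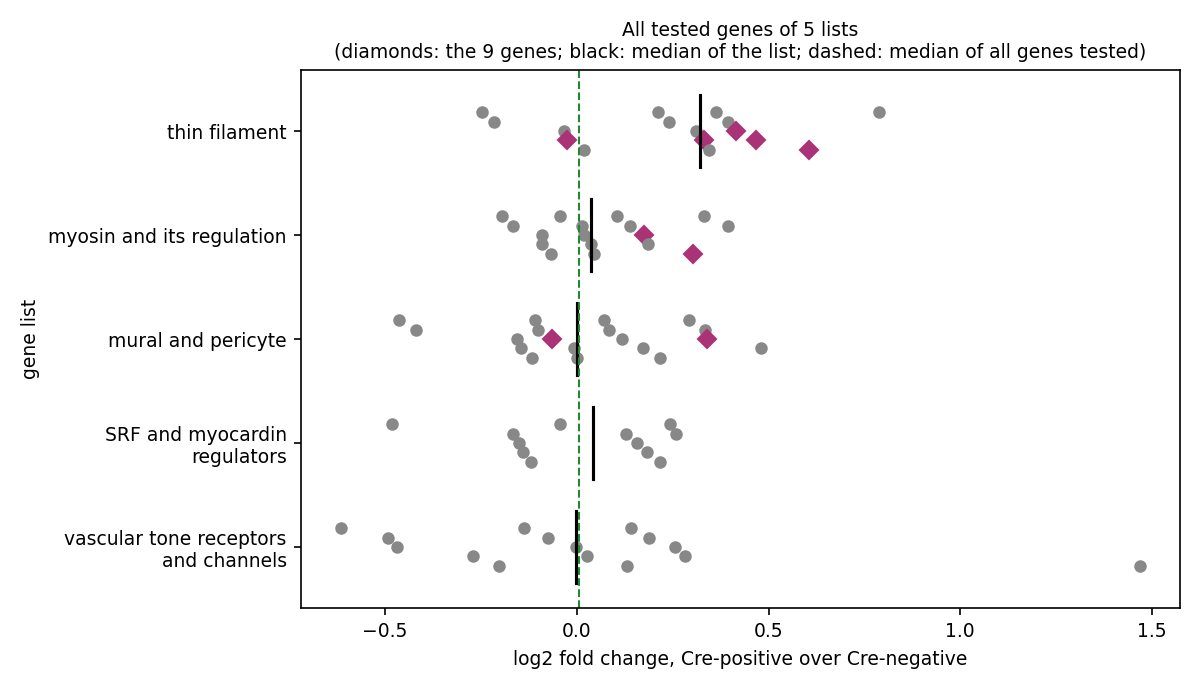
Log2 fold change, Cre-positive over Cre-negative, of the 79 tested genes in 5 lists, with diamonds for the 9 genes, circles for the others, a black line at the median of each list and a dashed line at the median of all genes tested. The median is 0.32 in the thin filament list and between −0.003 and 0.04 in the others, and the point far to the right is Kcnma1 (1.47).

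Markers of other cell types were summed in each ventricle. Cardiomyocyte markers summed to 48239 to 52166 TPM in Cre-positive and to 53632 to 63748 TPM in Cre-negative ventricles, with no overlap, and 8 of 8 had a negative log2 fold change. Myofibroblast markers summed to 3997 to 4262 TPM in Cre-positive ventricles and to 2119, 4159 and 4118 TPM in Cre-negative ventricles, with overlap and with 6 of 8 higher. With Postn, the Cre locus, left out after its value was seen, the other 7 summed to 3562, 3361 and 3675 TPM in Cre-positive ventricles. In Cre-negative ventricles they summed to 1667, 3144 and 3006 TPM, with no overlap on the TPM scale. Col3a1, the most abundant of the 7, did overlap, with 1982 to 2282 TPM in Cre-positive and 1109 to 2003 TPM in Cre-negative ventricles. Fap and Thy1 had log2 fold changes of −0.004 and 0.02. Endothelial markers summed to 666 to 757 TPM in Cre-positive and 537 to 679 TPM in Cre-negative ventricles, again with overlap and with 7 of 8 higher. Without Cre-negative replicate 1 the numbers higher were 1 of 8, 5 of 8 and 6 of 8 for cardiomyocyte, myofibroblast and endothelial markers. Fibroblast markers summed to 5897 to 6999 TPM in Cre-positive and 4254 to 6169 TPM in Cre-negative ventricles (5 of 8 higher). Macrophage markers summed to 3992 to 4668 TPM and 3078 to 4942 TPM (3 of 8 higher). Both overlapped, and without that replicate the numbers higher were 4 of 8 and 1 of 8. No defining marker of these lists was at 0, and their part in the differences of the 9 genes was not tested.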

How the data were processed

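Left ventricles of 3 Cre-positive and 3 Cre-negative mice were profiled by bulk RNAseq. The submitters' processing notes name Bowtie2 2.2.5, RSEM 1.2.12 and GRCm38.p6. The authors deposited 3 values per gene and ventricle. Their estimated counts were deposited without normalization, and 11.5% are not whole. The deposited FPKM and TPM values are scaled to gene length and library size. The authors also deposited their own comparison of the genotypes (fold changes and p-values), which was not used.

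Estimated counts were rounded and tested in R 4.3.3 with edgeR 4.0.16 (filterByExpr at 10 counts per library and 15 in total, TMM, quasi-likelihood test, Benjamini-Hochberg adjustment over all genes, threshold 0.05). The test was tested on simulated data. TPM served for levels and ratios. Exact two-sided permutation tests cannot go under p = 0.1 with 3 against 3. Fold changes carry 95% intervals from the same fit. Alternatives were DESeq2 1.42.0, its size factors, other filters (none, or a mean of 50 counts), limma 3.58.1 on log2(TPM + 1) and log2(TPM + 0.1), a replicate block and leaving out each ventricle. Figures were drawn with matplotlib 3.10.9 in Python 3.11.15.

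The labels call the replicates separate samples, and the design text calls the mice siblings. The edgeR p-values set the genotype difference against the variation between these ventricles, and litter was not modelled. No libraries were copies of each other. Named genes were all genes of the set, Yap1, Wwtr1, Postn and Notch3, the 2 highest and 2 lowest log2 fold changes of each list with a mean of at least 1 CPM, and the 5 genes closest to each of Acta2, Myh11 and Rgs5, of which 1 is not reported here. The genes and lists were chosen with earlier results of these data known. Stretches of 50 bases in GENCODE transcripts were compared between genes: 0.34% of those of Myh11 were shared with other genes, 0.202% for Acta2, 0.107% for Mylk and 0 for the other 6. Positions and promoters are those of RefSeq on GRCm38.p6.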

Additional observations from a re-analysis of the deposited data

How the results depend on the processing

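The count of 0 called genes among the 9, and in the 5 lists, was the same under every alternative run, as was the direction of Acta2, Tagln, Myh11, Cnn1, Lmod1, Mylk and Cspg4. Over all genes tested, 1 had an adjusted p under 0.05 with edgeR, against 5 with DESeq2, 2 with limma on log2(TPM + 1) and on log2(TPM + 0.1), and 0 to 2 when single ventricles were left out. With TPM the median of all genes was 0.11 with a pseudocount of 1 and 0.12 with 0.1, against 0.01 with edgeR. Under it Smtn turned to 0.092 and 0.093 and Rgs5 to 0.028 with either, which relative to that median is −0.02 and −0.03 for Smtn and −0.08 and −0.10 for Rgs5. Leaving out single ventricles gave a range of −0.067 to 0.017 for Smtn, −0.287 to 0.035 for Rgs5, −0.108 to 0.247 for Notch3 and −0.024 to 0.061 for Yap1. The median of the 9 genes ranged from 0.10 to 0.46, with the lowest value without Cre-negative replicate 1. Of the targeted genes 0 to 1 were called, Postn alone without Cre-negative replicate 1 (log2 fold change −0.94, adjusted p = 0.0182, edgeR with Benjamini-Hochberg adjustment). The cause was not tested. Same-numbered ventricles did not pair (correlations of their deviations 0.35, 0.07 and −0.03), and with a replicate block 0 of all genes and 0 of the 9 were called. By CPM, without length, 3 of the 9 genes kept the place they had by TPM, since genes differ in length. Lmod1, at 54 to 113 counts, was the most limited by depth.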

Other observations

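Markers of tissue near the left ventricle belong to no comparison above. Nppa, which infarcted ventricle can also make, had 14404 TPM in Cre-positive replicate 1 and between 6634 and 8877 TPM in the other 5 ventricles. The atrial markers Sln, Myl7 and Myl4 together had 1307, 956 and 171 TPM in Cre-negative and 2196, 55.0 and 451 TPM in Cre-positive ventricles, so ventricles of both genotypes held them. Each of these atrial markers was highest in Cre-positive replicate 1 and lowest in Cre-positive replicate 2. Scgb1a1, an airway gene, had 66.3 TPM in Cre-positive replicate 3 and at most 1.64 TPM elsewhere, while the surfactant genes Sftpc and Sftpb had at most 0.36 and 0.18 TPM in any ventricle. The 5 skeletal muscle markers summed to 26.5 TPM in Cre-positive replicate 1, of which Myh1 held 16.1 TPM, and to at most 2.52 TPM elsewhere. Each of the 5 had its highest value in Cre-positive replicate 1. Rgs5 had its highest level in Cre-positive replicate 3 and Cnn1 in Cre-positive replicate 1, and whether these markers bear on them was not tested.

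The 5 epicardial markers summed to 161, 81.0 and 98.2 TPM in Cre-positive and to 121, 54.2 and 30.1 TPM in Cre-negative ventricles, where 121 TPM belongs to Cre-negative replicate 1. All 5 had a higher mean in Cre-positive ventricles, with a median log2 fold change of 0.63 with all ventricles and 1.44 without that replicate, and 0 of 5 had an adjusted p under 0.05 by edgeR in either fit. At an unadjusted p under 0.05 there were 0 of 5 with all ventricles and 5 of 5 without that replicate, where 3.58% of all genes tested were higher at that level. The replicate left out held the highest Cre-negative sum of these markers, so leaving it out widens the difference. The 5 genes mark the same tissue and are not separate observations, so these counts are a description and no test.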
